A study of Mus musculus with 25 samples.

Results

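Fibroblast lines A and B are lines of mouse embryonic fibroblasts immortalized with c-myc, and their H3K27me3 peak lists differed at 289 of 18635 autosomal protein-coding genes by the rule used here. These line-specific genes had at least 50% of the gene record plus 2 kb on each side covered by peaks of 1 line and 0% covered in the other. Line A alone had peaks at 156 of them and line B alone at 133. Chromosome 7 and the sex chromosomes were left out, and 20665 genes would have been examined with chromosome 7.

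The study asked whether silencing by Polycomb is remembered at target genes after the enzyme is lost and restored. H3K27me3 was measured by ChIP-seq in each line as wild type and as Ezh2 -/-, with 2 libraries per group, all with the antibody clone C36B11. The loss of Ezh2 is labelled reversible in line B. Libraries with Ezh2 restored, from retroviral pMSCV-Ezh2 in line A or by endogenous rescue in line B, are not named by the lists. Each line was thus represented by 1 list of peak positions whose name joins its wild-type and Ezh2-deficient libraries. Not given in the sources used here are how these libraries entered the calls, whether a line is a single clone, and the part of the embryo it came from. The remaining list, of neural progenitors (NPC) grown from embryonic stem cells, served as a measure that the choice of genes did not use. The study holds 6 CUT&RUN libraries of these cells (untreated, treated with 2 uM UNC1999 and 4 uM A395, or after washout of these PRC2 inhibitors), and the name of the list does not say which of them it rests on.

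H3K27me3 is placed by Polycomb repressive complex 2 (PRC2), whose methyltransferase subunit is Ezh2 or its relative Ezh1. The mark spreads over silent genes, above all those of developmental transcription factors and signalling molecules, and is read by further Polycomb complexes. Fibroblasts are known to keep a record, in their Hox, Tbx, Pitx and related genes, of the part of the body they come from.

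The promoters of 6 line-specific regulators are examples of sequence over which the lines differed. Not every line-specific gene had its promoter covered. Of those with a matched promoter, peaks of the own line covered all of it in 74 of 111 genes in line A and 74 of 94 in line B. They covered none of it in 28 and 17 genes. Candidates were transcription factor or signalling genes of the lists and families used below. Not every such gene of a line was a candidate, and Ebf2, for one, was not. The promoters shown belong to the 3 candidates of each line with the most covered length that had a matched promoter covered from end to end. For each gene the matched promoter farthest upstream was used. Gata4, Pitx1, Dlx6, Meox1 and Bmp2 were passed over because no promoter could be matched to them. Thrb and Nr2f1 were passed over because peaks of the own line covered 0% of the promoter, which also held for Foxd1. They run 5′ to 3′ in the direction of transcription from 250 bases before to 50 bases after the start, from RefSeq in build GRCm38.p6, the assembly of mm10, with each CG dinucleotide in capitals. PRC2 sites in mammals are known to lie at stretches rich in CG. Each of the following was 100% covered in line A and 0% in line B. Tbx18 encodes a T-box factor of limb, heart and body wall mesenchyme, Hoxa10 a homeodomain factor of the posterior body, and Msx1 a homeodomain factor of limb and face mesenchyme.
Tbx18 promoter, chr9:87731211-87731510, minus strand: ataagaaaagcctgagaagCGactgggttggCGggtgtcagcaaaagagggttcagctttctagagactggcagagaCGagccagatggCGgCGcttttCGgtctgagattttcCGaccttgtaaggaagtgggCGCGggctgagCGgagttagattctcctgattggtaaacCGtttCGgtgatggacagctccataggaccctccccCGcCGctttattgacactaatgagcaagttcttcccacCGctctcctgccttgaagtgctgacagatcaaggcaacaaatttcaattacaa
Hoxa10 promoter, chr6:52240805-52241104, minus strand: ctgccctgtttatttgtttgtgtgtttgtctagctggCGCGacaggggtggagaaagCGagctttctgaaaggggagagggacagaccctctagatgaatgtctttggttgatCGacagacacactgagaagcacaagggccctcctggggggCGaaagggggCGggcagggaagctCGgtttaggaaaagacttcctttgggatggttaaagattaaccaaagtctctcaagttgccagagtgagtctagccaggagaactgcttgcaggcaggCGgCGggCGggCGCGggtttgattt
Msx1 promoter, chr5:37824536-37824835, minus strand: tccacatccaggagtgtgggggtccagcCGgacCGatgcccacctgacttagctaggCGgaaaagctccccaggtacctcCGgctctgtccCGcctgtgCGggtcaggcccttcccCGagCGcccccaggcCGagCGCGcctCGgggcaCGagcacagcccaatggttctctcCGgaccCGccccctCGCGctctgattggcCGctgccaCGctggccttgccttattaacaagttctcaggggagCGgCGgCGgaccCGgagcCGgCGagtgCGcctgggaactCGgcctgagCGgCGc

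Each of the next promoters was 0% covered in line A and 100% in line B. Zic1 and Zic4 are neighbouring genes for zinc finger factors of the dorsal neural tube and somites, and Dkk2 encodes a secreted modulator of Wnt signalling.
Zic1 promoter, chr9:91365719-91366018, minus strand: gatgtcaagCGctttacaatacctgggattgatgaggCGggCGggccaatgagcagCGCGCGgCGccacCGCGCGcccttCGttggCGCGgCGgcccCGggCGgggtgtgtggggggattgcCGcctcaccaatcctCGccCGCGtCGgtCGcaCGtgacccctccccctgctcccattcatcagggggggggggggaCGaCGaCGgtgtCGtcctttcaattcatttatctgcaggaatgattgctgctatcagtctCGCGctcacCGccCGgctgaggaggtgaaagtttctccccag
Zic4 promoter, chr9:91368722-91369021, plus strand: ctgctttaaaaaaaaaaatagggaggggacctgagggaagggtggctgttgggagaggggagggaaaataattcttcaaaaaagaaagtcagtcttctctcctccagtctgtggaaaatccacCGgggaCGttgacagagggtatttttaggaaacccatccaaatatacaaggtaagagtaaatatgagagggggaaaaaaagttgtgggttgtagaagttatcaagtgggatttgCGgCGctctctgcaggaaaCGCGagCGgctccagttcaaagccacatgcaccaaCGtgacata
Dkk2 promoter, chr3:132085042-132085341, plus strand: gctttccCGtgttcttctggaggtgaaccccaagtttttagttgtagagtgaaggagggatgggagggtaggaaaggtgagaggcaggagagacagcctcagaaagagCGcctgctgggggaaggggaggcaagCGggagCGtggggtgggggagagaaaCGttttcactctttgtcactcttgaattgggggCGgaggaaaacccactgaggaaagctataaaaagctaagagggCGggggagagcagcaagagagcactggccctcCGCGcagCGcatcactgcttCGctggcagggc

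The number of CG dinucleotides differed widely among these promoters, from 8 in Zic4, 11 in Dkk2 and 12 in Hoxa10 to 15 in Tbx18, 29 in Msx1 and 31 in Zic1. The letters CG, which read the same on both strands, occur in 95.5% of the 14715 promoters of the same length that could be matched to a gene, with a median of 15. Neither set stood on 1 side of that median. NPC peaks covered 100% of the Dkk2 promoter and 0% of the other 5.

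The line-specific genes were a small part of the genes that carried the mark. The line A-specific genes made up 0.837% of all genes and the line B-specific ones 0.714%, while 1248 genes (6.70%) were covered by 50% or more in both lists and 10869 had no peak in either. The genes with 50% or more numbered 2029 in line A and 2013 in line B, of which 7.69% and 6.61% were line-specific. With the narrowest line A peaks left out until both lists covered about the same length, 136 line A-specific and 254 line B-specific genes were counted, so the order of the totals turned. A weaker criterion, a difference of at least 50 percentage points in either direction, was met by 428 genes higher in line A (2.30%) and 362 higher in line B (1.94%). Over the chromosomes used, line A had 81315 peaks covering 261.1 Mb and line B 79437 peaks covering 230.5 Mb, of which 124.5 Mb were common (47.7% of line A and 54.0% of line B). With 1 list per line there is no replicate spread, so no difference below was tested, the depth is unknown, and a missing peak does not show that the signal was lower.

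The 50% threshold ran through a continuous distribution. Ptk2b at 50.1% and Ankef1 at 50.4% were the last genes inside it in line A, and Neurl1a at 49.95% and Fut7 at 49.91% the first outside, all at 0% in line B. In line B, Abcg4 at 50.2% and Adh6b at 50.4% were just inside, while Kcna3 and Wfdc5 at 49.93% were just outside. The requirement of 0% excluded Limch1, with 69.6% in line A and 223 bp in line B, and Cgnl1, with 211 bp in line B. It likewise excluded the acetylcholine transporter gene Slc18a3, fully covered in line B with 24 bp in line A, and Hmcn1. In all, 86 genes of line A and 48 of line B met the 50% criterion but had more than 0 and up to 5% in the other list.

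Neither list went against the labelled cell type. Of 12 fibroblast markers, among them Col1a2, Col3a1, Pdgfra, Vim, Twist1 and Prrx1, 11 had no peak in line A and 11 none in line B. The exceptions were 0.893 kb at Col1a1 in line A and 0.027 kb at Twist2 in line B. Markers of other lineages carried peaks in both lines, counting any covered base and giving line A first. These were 6 and 3 of 6 epithelial, 4 and 5 of 5 endothelial and 4 and 4 of 4 blood genes. Among neural genes they were 4 and 5 of 5, and among muscle genes 2 and 2 of 3. At the threshold the rule sets for the own line, there were 1 and 1 epithelial, 1 and 0 endothelial and 2 and 1 blood genes. Neural genes then numbered 3 and 5, muscle genes 1 and 0, and fibroblast markers 0 and 0. Of all 18635 genes, 10869 had no peak in either line. Of 32 tested mesenchymal and fibroblast genes none was line-specific, a count that allows up to 9.38%. Here and below, the limit printed for a count of 0 is 3 divided by the number of members tested. It treats the members as independent, so it is too low where neighbouring genes share peaks. The 25 housekeeping genes had no peak in either line.

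Genes that give mesenchyme its position in limb, face and body wall differed mostly towards line A. Of 50 such factors, 6 (12%) were line A-specific and 1 (2%) was line B-specific, against 0.837% and 0.714% of all genes. A further 12 were covered by 50% or more in both and 12 by nothing in either. Factors with 50% or more numbered 24 in line A and 18 in line B, against 10.9% and 10.8% of all genes. The median coverage of the list was 44.4% in line A and 13.05% in line B, where the median of all genes was 0% in both. Pitx1, the factor of hindlimb identity on chromosome 13 (55825044 to 55836190), was 100% covered in line A by a 22.7 kb peak, 0% in line B and 100% in NPC. The nearest line B peak lay 301.2 kb away, and within 200 kb on either side of Pitx1 line A peaks covered 41.8% of the sequence. The neighbour Catsper3, a sperm calcium channel gene, was line A-specific as well at 63.8%.

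Dlx6 and Dlx5, paired homeobox genes of the jaw and the limb ridge on chromosome 6 (6863334 to 6882068), shared a 44.1 kb line A peak that covered 100% and 97.9% of them. Both had 0% in line B, where the nearest peaks lay 51.3 and 37.2 kb away, and both were 100% covered in NPC. Msx1 was 100% covered in line A with 0% in line B and NPC, but here line B peaks began 2.21 kb from the gene window and covered 48.7% of its surroundings within 50 kb, against 62.1% in line A. Tbx18 on chromosome 9 (87702800 to 87731260) was 88.1% covered in line A by 4 peaks. Foxf2, a forkhead gene of face and gut mesenchyme, was 80.4% covered in line A, not at all in line B, and 29.3% in NPC. Within 300 kb on either side of Dlx6 and Dlx5, peaks covered 41.6% in line A and 16.8% in line B. Pitx1 thus lay in a long stretch that line B left free, while Msx1 was a gap in a block that line B partly shared.

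The same list was not one-sided. Foxd1, a forkhead gene of kidney stroma and retina, was the line B-specific member, with 64.0% in line B, 0% in line A and 100% in NPC. By the criterion of 50 percentage points, 10 factors were higher in line A and 4 in line B, against 2.30% and 1.94% of all genes. Besides the 6 named, the former were Pax3 (93.0% against 8.36%), Hand2 (100% against 39.4%), Gsc (100% against 8.23%) and Msx2 (100% against 45.9%). Besides Foxd1, the latter were Alx1 (14.02% in line A against 100% in line B), Tbx2 (8.98% against 86.4%) and Tfap2a (4.14% against 76.0%), factors of face mesenchyme, limb and neural crest.

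Neural progenitor genes formed the counterpart in line B. Of 28 tested, 6 were line B-specific (Zic4, Zic1, Otx1, Zic2, Zic5 and Sox2) and 0 line A-specific, a count that allows up to 10.7%. The 6 were 21.4% of the list, against 0.714% of all genes. Genes of the list with 50% or more numbered 15 in line A and 22 in line B, against 10.9% and 10.8% of all genes. A further 14 were covered by 50% or more in both lines. The list median was 65.3% in line A and 97.3% in line B. None of the 6 had an NPC peak. The intermediate filament gene Nes, with 1.59% in line A and 83.8% in line B, was also higher in line B, whereas Fabp7, a lipid-binding protein of radial glia, had 64.6% in line A and 2.86% in line B.

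All 4 Zic genes on the chromosomes used were line B-specific. Zic1 and Zic4 on chromosome 9 (91358058 to 91389351) were 100% covered by a single line B peak of 63.2 kb. No line A peak lay within 500 kb on either side, and the nearest to the Zic4 window was 692.6 kb away. Zic2 and Zic5 on chromosome 14 (122459160 to 122480328) shared a 42.3 kb line B peak that covered 100% and 75.3% of them, and the nearest line A peaks were 375.5 and 359.3 kb away. Sox2, the pluripotency and neural stem cell factor on chromosome 3 (34649995 to 34652461), was 100% covered by a 47.2 kb line B peak. Line A had a peak 9.09 kb from the Sox2 window, and within 500 kb on either side the lines covered 9.92% and 18.9%. Otx1, a forebrain homeobox gene, was 100% covered in line B with a line A peak 1.47 kb away. The Zic loci were thus free of line A peaks far beyond the genes, while at Sox2 and Otx1 line A peaks came closer.

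**Figure D1:**
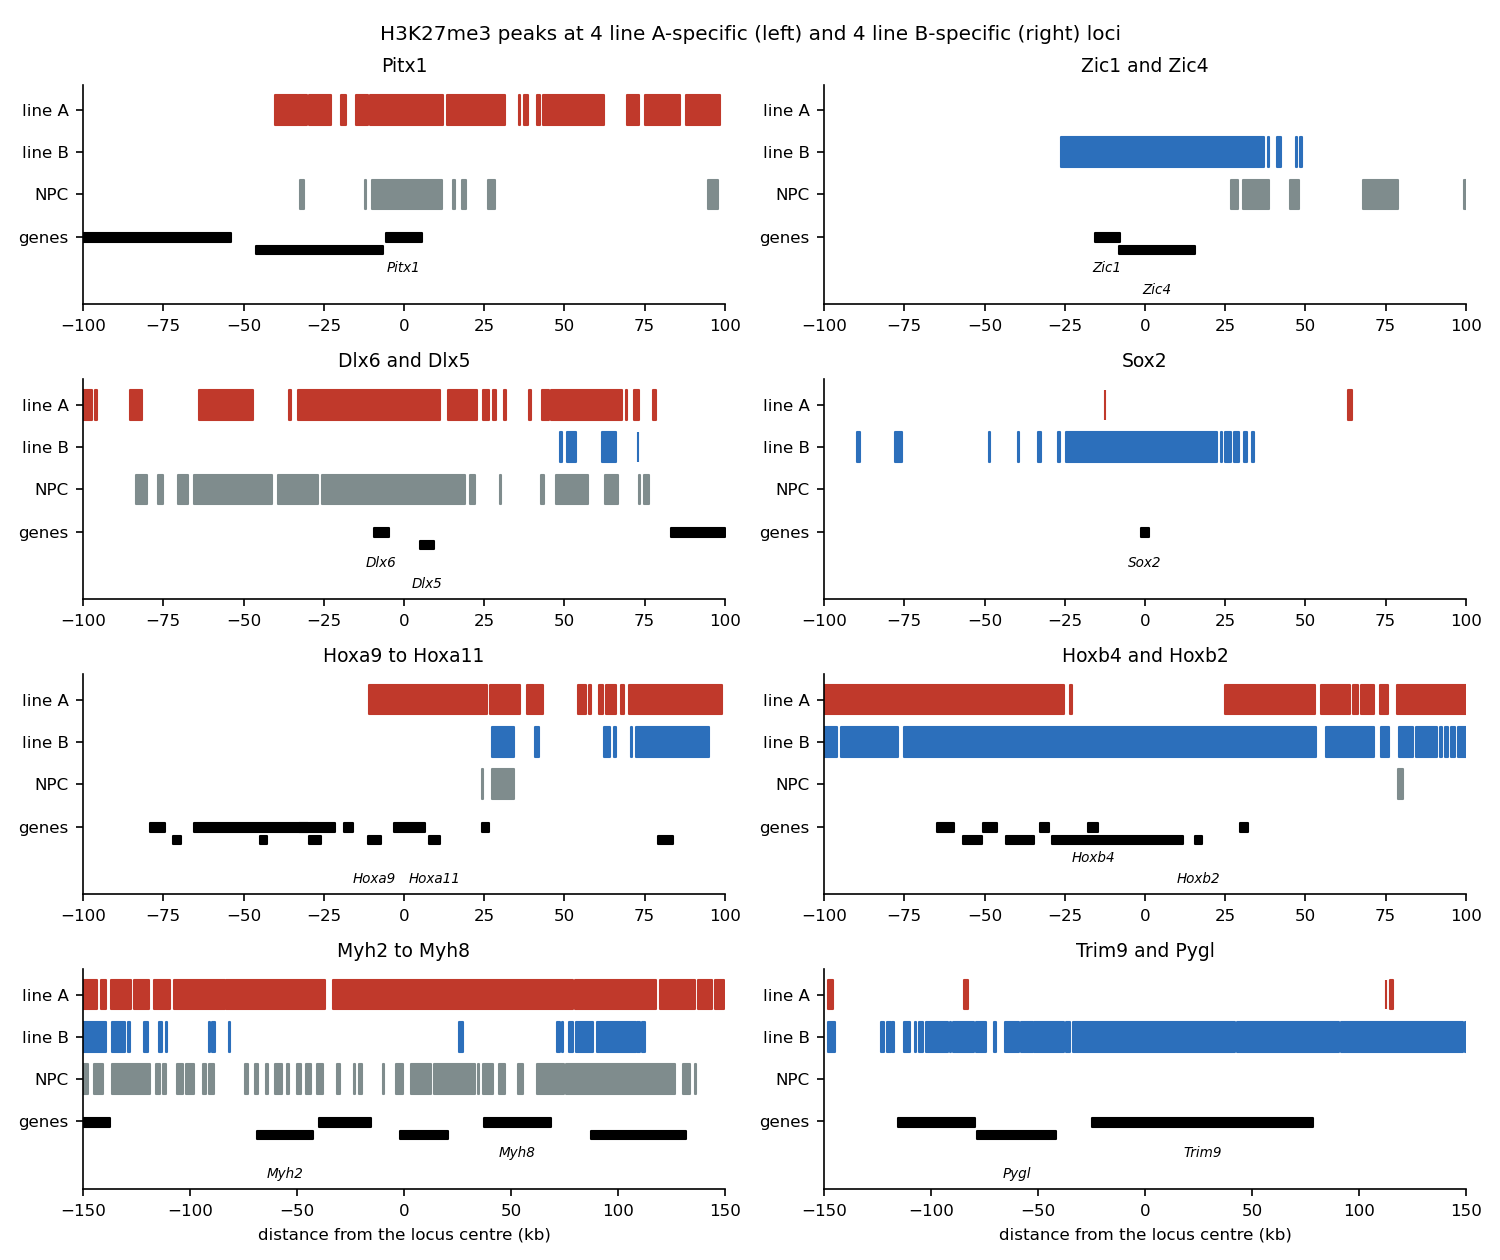
Peaks of line A (red), line B (blue) and NPC (grey) and protein-coding gene records (black) at 4 line A-specific loci (left) and 4 line B-specific loci (right). The x axis is the distance from the centre of the locus in kb, and the height of a block carries no value. The loci were chosen after their values were seen. No line B block touches Pitx1, and no line A block appears within 100 kb of the centre between Zic1 and Zic4. At the Hoxb locus the lines share the flanks and differ in the middle.

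The Hox genes, whose order along the chromosome follows their order of use along the body, differed in parts of each cluster. Of 39, 4 were line A-specific (Hoxa9, Hoxa10, Hoxa11 and Hoxc10) and 3 line B-specific (Hoxb4, Hoxb2 and Hoxd1), with 13 covered by 50% or more in both and 14 uncovered in both. These shares were 10.3% in line A and 7.69% in line B, against 0.837% and 0.714% of all genes. Hoxa9 (69.3%), Hoxa10 (100%) and Hoxa11 (100%) lay under a single 36.6 kb line A peak, and Hoxa13 beside them had 84.9% in line A and 19.04% in line B. Hoxc10 had 83.3% in line A against 0% in line B, and its neighbour Hoxc11 had 100% and 40.4%. In line B a 128.5 kb peak ran over Hoxb4 and Hoxb2, both at 100% against 0% in line A, and over Hoxb3 (100% against 13.9%). Hoxb1 and Hoxb5 on either side of this stretch were 100% covered in both lines. Hoxd1, at the anterior end of its cluster, was 100% covered in line B by a 12.4 kb peak and 0% in line A, with the nearest line A peak at 0.836 kb. Line A was thus covered further along the posterior Hoxa and Hoxc genes, and line B over the anterior Hoxb genes and Hoxd1. None of the 7 had an NPC peak. With a flank of 5 kb the line B-specific Hox genes numbered 1 in place of 3, and the line A-specific ones still 4.

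**Figure D2:**
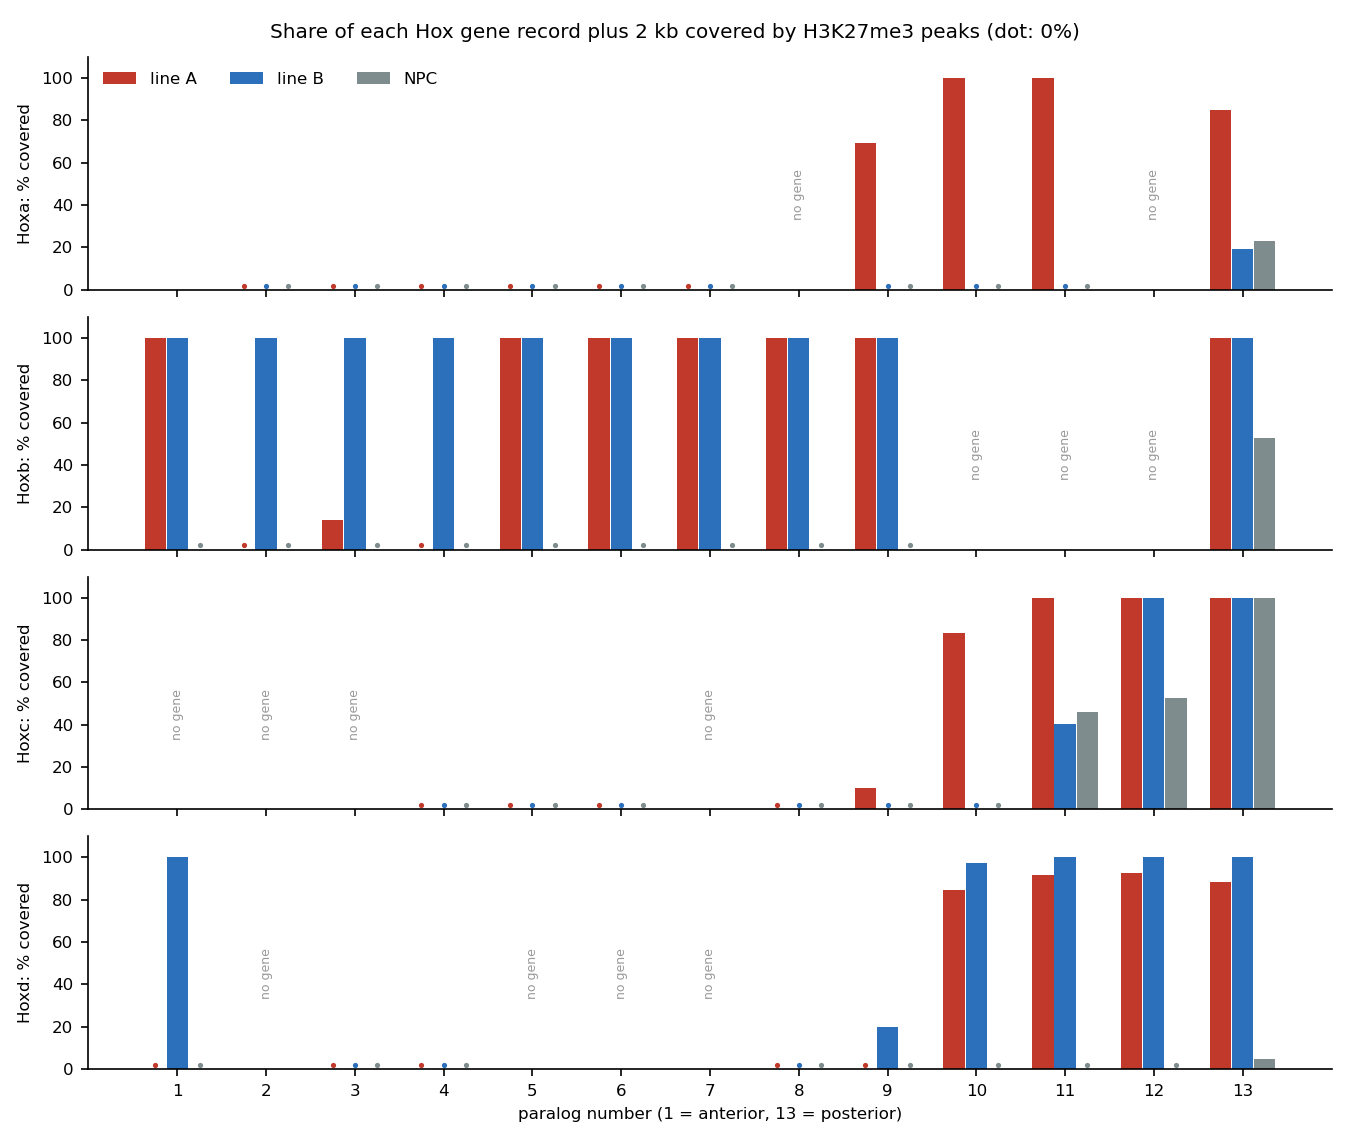
Percent of each Hox gene record plus 2 kb covered by peaks of line A (red), line B (blue) and NPC (grey), by cluster and paralog number. Dots mark values of 0%. The bars of Hoxa9, Hoxa10, Hoxa11 and Hoxc10 are red alone, and those of Hoxb2, Hoxb4 and Hoxd1 blue alone.

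Other developmental regulators were divided between the lines in small numbers. Over all genes, 0.837% were line A-specific and 0.714% line B-specific. Gata4, a factor of heart and gut on chromosome 14 (63198914 to 63271712), was 79.8% covered in line A over 61.3 kb, 0% in line B and 32.5% in NPC. Hhex, a homeobox gene of liver and blood vessels, had 88.1% in line B and 0% in line A. The list of 21 endoderm factors therefore held 1 gene of each kind. By other measures its counts were higher in line A, with 15 and 10 genes at 50% or more and medians of 75.8% and 42.6%. Over all genes, 10.9% and 10.8% had 50% or more. By the criterion of 50 percentage points, 4 were higher in line A (Gata4, Gata6, Prox1 and Sox17) and 1 in line B (Hhex). Over all genes these shares were 2.30% and 1.94%. Atoh1, a basic helix-loop-helix factor of the cerebellum and the inner ear, was the only line-specific gene of 43 neuronal transcription factors, with 90.1% in line B, 0% in line A and 100% in NPC. Of that list 34 were covered by 50% or more in both lines. Meox1, a somite homeobox gene, was line B-specific at 77.3% and was the only such gene of 26 heart and skeletal muscle genes. Line-specific nuclear receptors were the thyroid hormone receptor gene Thrb in line A (51.7%) and Nr2f1 in line B (92.9%), and neither the blood list of 29 nor the endothelial list of 19 held a line-specific gene, counts that allow up to 10.3% and 15.8%.

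The line-specific genes of the Wnt, TGF-beta and BMP lists all belonged to line B. They made up 6.06% of the Wnt list and 5.41% of the TGF-beta and BMP list, against 0.714% of all genes. Dkk2 and Dkk1, which encode secreted Wnt modulators, had 53.5% and 68.9% in line B and 0% in line A, the only 2 of 33 Wnt ligands and antagonists. Both were far from line A peaks, at 146.8 and 310.4 kb. Bmp2, a bone morphogenetic protein, and Inha, the alpha subunit of inhibin, had 87.4% and 87.6% in line B, the only 2 of 37 ligands and antagonists of the TGF-beta and BMP family. Line A peaks lay 6.72 kb from Bmp2 and 0.848 kb from Inha. Tdgf1, the co-receptor of Nodal on the pluripotency list, had 72.4% in line B. Epop, an accessory protein of PRC2, was 100% covered in line B by a 10.2 kb peak and was the only line-specific gene of 28 Polycomb and H3K27 regulators. Line A had a peak 0.279 kb from the Epop window. No line-specific gene was found among 16 Fgf ligands, a count that allows up to 18.8%.

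Wide differences in the same families fell short of the rule. Sfrp1, a secreted Wnt antagonist, had 88.9% in line A against 6.65% in line B, and Wnt2 had 1.89% and 72.9%. The BMP antagonist genes Nog (82.9% against 8.76%) and Chrd (76.4% against 12.8%) were higher in line A. The Wnt list thus had 3 members higher in line A and 4 in line B by 50 points, and the TGF-beta and BMP list 3 and 3. The shares over all genes were 2.30% higher in line A and 1.94% higher in line B.

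Gene clusters of hair, skin, muscle fibre and nose supplied several of the line A-specific genes. The keratins, the filament proteins of epithelia and hair, gave 8 line A-specific genes of 53 and no line B-specific one, a count that allows up to 5.66%. The 8 were 15.1% of the family, against 0.837% of all genes. The type I keratins on chromosome 11 accounted for 7 of these, and their median coverage was 72.6% in line A and 7.08% in line B. The 26 keratins on chromosome 15, nearly all of type II, had 1 (Krt83), with medians of 60.2% and 66.0%. The longest run of neighbouring line-specific genes in either line was Krt32, Krt35, Krt36, Krt13 and Krt15 on chromosome 11 (100080848 to 100135949), with 51.1%, 79.4%, 86.1%, 79.0% and 94.8% in line A. These 5 genes lay in a single 50.8 kb region of joined line A peaks in which line B had none. Keratin-associated proteins, the matrix of the hair shaft, added 6 line A-specific genes, all among the 23 tested on chromosome 11, while the 24 on chromosome 16 had no peak in either line. The split by chromosome was made after the values were seen.

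The skeletal myosin heavy chain genes, motor proteins of muscle fibres, formed the next longest run. Myh2, Myh1, Myh4 and Myh8 on chromosome 11 (67171027 to 67308634) had 100%, 87.9%, 100% and 100% in line A and 0% in line B. Peaks of 46.3 and 112.3 kb covered them in line A, and NPC peaks covered 22.6% to 79.3%. The flanking genes of the cluster did not follow: Myh3 had 66.8% and 77.9%, and Myh13 95.9% and 49.4%. Beta-defensins, small antimicrobial peptides, gave 5 of 42 line A-specific genes, and trace amine receptors, mostly of the nose, 3 of 15. Over all genes the line A-specific share was 0.837%. All 15 trace amine receptors had 50% or more in line A, against 2 in line B. Interleukins and their receptors gave Il18rap, Il24 and Il2 in line A, of 70, and 0 with a flank of 5 kb in place of 2 kb. With that flank the defensins of all kinds fell from 5 to 2. Hormad2, a protein of meiotic chromosomes, was the only line-specific gene of 25 germline genes, with 80.9% in line A.

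Line B had its own clustered genes, above all on chromosome 6. Olfactory receptors gave 14 line B-specific genes of 865 (1.62%, against 0.714% of all genes) and 5 line A-specific ones (0.578%, against 0.837%). These became 30 and 17 with no flank and 28 and 3 with the covered length of the lists matched. Of the 14, 8 were among the 28 receptors tested on chromosome 6. There the median coverage was 54.9% in line B and 0% in line A, while over all 865 receptors it was 0% in both. Olfr459, Pip and Sval2 formed a run on that chromosome (41771353 to 41864413) with 100%, 89.8% and 88.7% in line B. Pip encodes a secreted prolactin-induced protein. Runs of 3 receptors followed, Olfr452, Olfr450 and Olfr449, and Olfr441, Olfr237 and Olfr437. Between Trpv6 and Olfr437, a 1547 kb stretch chosen after its values were seen, 14 of 41 genes were line B-specific and 0 line A-specific, with 38.9% of the sequence covered in line B and 7.26% in line A. On chromosome 9, Fam240a, Tdgf1 and Lrrc2 formed another run of 3.

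**Figure D3:**
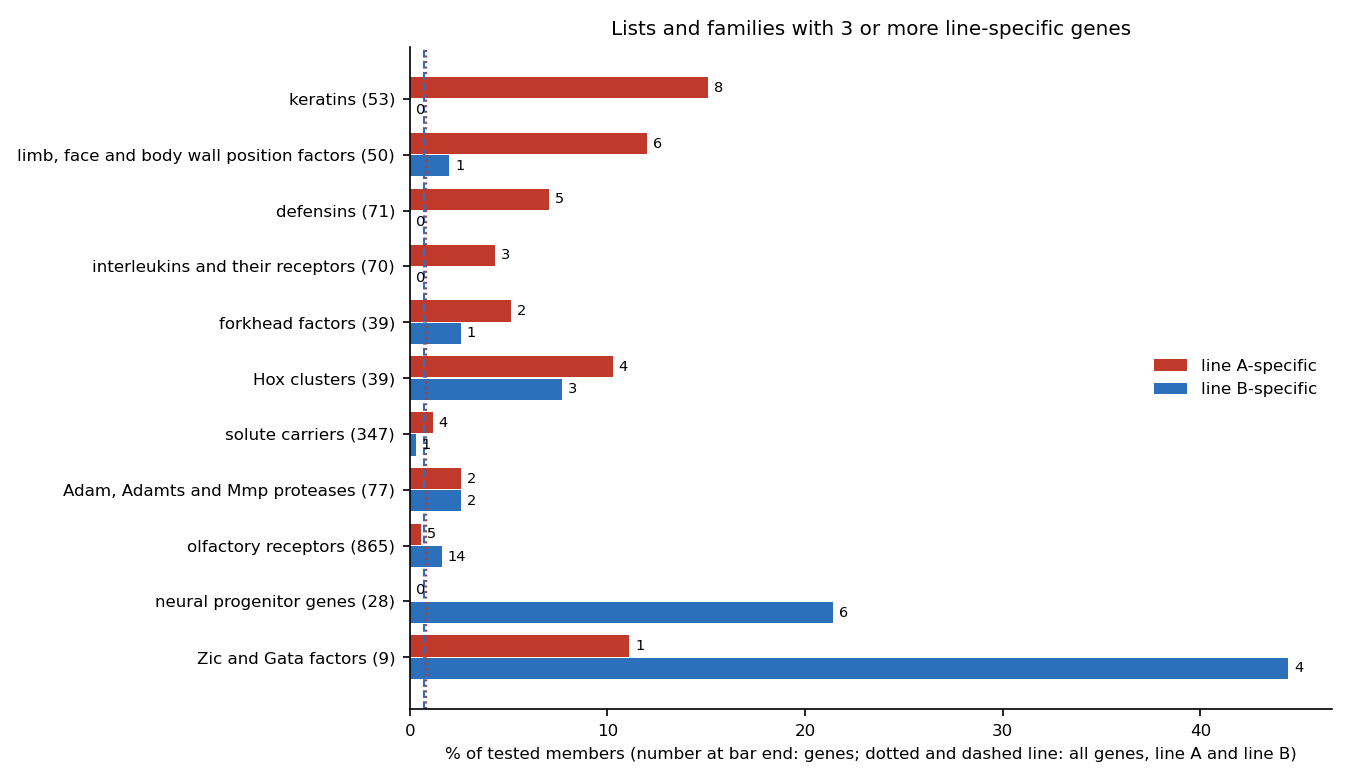
Percent of the tested members of each list or family that were line A-specific (red) or line B-specific (blue), with the number of genes at the end of each bar and the number tested in brackets. Shown are those of the 17 lists and 35 families with at least 3 line-specific genes, which do not include the myosins and trace amine receptors as families of their own. The dotted and dashed lines mark 0.837% and 0.714%, the shares over all genes. Among those shown, keratins and limb, face and body wall factors reach furthest in red, and Zic and Gata factors and neural progenitor genes in blue.

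Most line-specific genes stood alone. In line A, 16 runs of neighbouring genes held 38 genes and 118 genes stood single. In line B, 12 runs held 28 genes and 105 stood single. Genes of a run often share a peak, so they are not independent observations. With 1 gene kept per group of overlapping windows, 125 and 107 genes remained.

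Ranked by covered length, the line-specific genes were long genes with many separate peaks. Zmat4, a zinc finger gene on chromosome 8 (23647326 to 24063117), had 308.9 kb covered in line A by 49 peaks, 73.6% of its window, and no line B peak within 49.9 kb. Csgalnact1, an enzyme that starts chondroitin chains, had 209.9 kb and Thrb 198.8 kb. Slc4a10, a bicarbonate transporter of neurons, had 166.8 kb and Dync1i1, an intermediate chain of neuronal dynein, 164.5 kb. The tubulin-modifying enzyme gene Ttll11 (136.3 kb), the ion channel subunit gene Unc79 (128.3 kb) and Arfgef3 (126.2 kb) came next. They were followed by Slc25a13, a mitochondrial aspartate carrier (117.9 kb), Abca12, a lipid transporter of the skin barrier (111.0 kb), the serotonin receptor gene Htr4 (94.7 kb) and the nuclear pore gene Nup210 (89.0 kb). NPC peaks covered 58.3% of Htr4 and 49.9% of Dync1i1, and 0 to 13.1% of the other 10.

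In line B the leading gene was Ebf2, a transcription factor of brown fat and neurons on chromosome 14 (67233292 to 67430952), with 133.2 kb covered by 37 peaks. Trim9, a ubiquitin ligase of neurons on chromosome 12 (70244533 to 70347869), had 106.6 kb covered by 2 peaks, 99.3% of its window. With its neighbour Pygl, the liver glycogen phosphorylase (73.4%), it lay in a 239.2 kb region of joined line B peaks of which line A covered 1.31%. Ubash3b, a phosphatase of immune cell signalling, had 89.2 kb, Rnf165, a ubiquitin ligase, 78.6 kb, and Colgalt2, a collagen galactosyltransferase, 68.6 kb. Stk32a (61.7 kb), the carboxypeptidase gene Cpvl (60.4 kb), Dkk2 (52.9 kb), the metalloprotease gene Adam28 (43.6 kb) and Trmt9b (40.7 kb) followed. The list closed with Gldn, a protein of the node of Ranvier (37.8 kb), and Tfpi, the inhibitor of tissue factor in clotting (34.7 kb). NPC peaks covered at most 12.1% of any of these 12. Covered length favours long genes: over all line-specific genes the median record was 8.36 kb in line A and 5.66 kb in line B, shorter than the 12.2 kb of genes covered in both and the 18.6 kb of all genes.

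A typical line-specific gene was covered over 70.8% of its window in line A (median, 9.22 kb) and 72.4% in line B (7.19 kb). Windows were covered from end to end in 20 and 26 genes, and by a single peak in 43 and 46. The other line was often close by. Its nearest peak lay at a median of 13.2 kb from the line A-specific windows and 15.3 kb from the line B-specific ones, within 10 kb in 69 of 156 and 56 of 133 genes and beyond 50 kb in 32 and 42. In the 50 kb on either side of the window, the own line covered a median of 43.9% and 34.2% and the other line 6.14% and 2.60%. Over all genes these medians were 6.80% for line A and 7.22% for line B. When the peaks of the own line were joined into regions, the region at the gene was free of the other line in 88 and 78 genes. In 47 and 25 genes the other line covered more than 10% of that region. Since the rule asked for 0% in the gene window, these counts are a description of the genes chosen.

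NPC peaks, which took no part in the choice of genes, were found at 89 of 156 line A-specific genes (57.1%, 95% exact Clopper-Pearson interval 48.9 to 64.9%) and at 50 of 133 line B-specific genes (37.6%, 29.3 to 46.4%). The share was 71.7% of the genes covered in both lines, 7.49% of those without a peak in either and 45.6% of the 6229 genes in none of these classes. Over all genes it was 25.2%. The line B-specific share lay below that of the genes in none of these classes, whose 45.6% was inside its interval. Those genes also had a longer median record, and the part of length in these shares was not tested. Coverage of 50% or more in NPC was seen at 23 line A-specific genes (14.7%) and 13 line B-specific genes (9.77%). It was seen at 23.1% of genes covered in both lines, 4.59% of those in none of these classes and 3.63% of all. By this measure both line-specific shares lay above that of the genes in none of these classes. Pitx1, Dlx5, Dlx6, Foxd1 and Atoh1 were fully covered in NPC, and Sox2, the Zic genes, Otx1 and the line-specific Hox genes had no NPC peak. The intervals cover counting error only, and since neighbouring genes share peaks they are too narrow. The NPC list also differs in assay from the fibroblast lists.

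**Figure D4:**
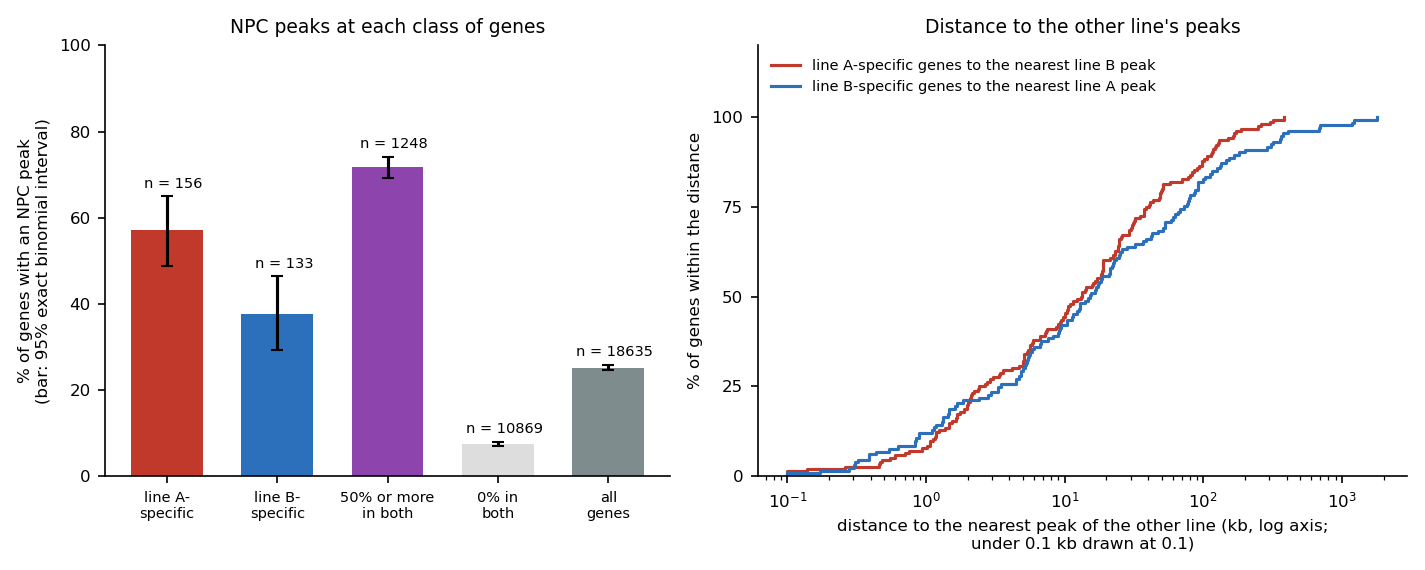
Left, percent of genes of each class with an NPC peak in the gene window; bars are shares and error bars 95% exact binomial intervals, with the number of genes above. Right, percent of the line-specific genes of each line whose nearest peak of the other line lies within the distance on the x axis (kb, log axis). The line A-specific share (57.1%) lies above the line B-specific share (37.6%), and the distance curves run close together up to about 20 kb.

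Line-specific stretches were also found away from genes. Regions were made by joining peaks separated by less than 3 kb, and those of 20 kb or more were kept. Line A had 4136 such regions, of which 575 (13.9%) had no base covered in line B. Line B had 3583, of which 321 (8.96%) had no base covered in line A. With peaks joined under 10 kb in place of 3 kb, such regions numbered 733 in line A and 704 in line B. The size of the difference between the lines thus depends on the joining distance. These regions totalled 19.5 and 10.8 Mb. Of them, 291 (50.6%, 46.4 to 54.8%) and 173 (53.9%, 48.3 to 59.4%) held no protein-coding gene, against 35.2% and 34.4% of the regions that the lines shared by 50% or more. NPC peaks were present in 48.0% and 46.7%, against 72.7% and 71.7% of the shared regions. Regions covered in part by the other line held no gene in 49.8% and 43.4%, close to the line-specific share in line A, and had an NPC peak in 56.9% and 59.1%. The line-specific regions were also shorter, with a median of 27.9 kb in both lines against 34.9 and 36.1 kb for the shared ones, and the part of length in these shares was not tested.

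The longest line A-specific region spanned 131.3 kb on chromosome 8 (24037545 to 24168856) at 1 end of Zmat4, and a second over Zmat4 spanned 110.2 kb. A region of 118.6 kb on chromosome 2 (145485288 to 145603862) lay over Slc24a3, a sodium and calcium exchanger, and the predicted gene Gm14092. A region of 110.1 kb on chromosome 8 (12080712 to 12190772) held no gene, and one of 107.8 kb on chromosome 17 lay over L3mbtl4, a gene of the malignant brain tumour repeat family. In line B the longest spanned 147.0 kb on chromosome 14 (67223815 to 67370840) over Ebf2. A region of 132.4 kb on chromosome 15 (27011918 to 27144277) held no gene, with Fbxl7 the nearest at 116.4 kb. Regions of 129.5 kb over Astn1, a protein of neuronal migration, and of 106.3 kb at 101.7 kb from Brinp2 lay close together on chromosome 1. The fifth, of 101.9 kb, lay over Ccser1 on chromosome 6.

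Line-specific genes were unevenly spread over the chromosomes. Chromosome 11 held 33 of the line A-specific genes, 2.05% of its genes, and chromosome 6 held 26 of the line B-specific genes, 2.31% of its genes. The covered length of line A over that of line B ranged from 0.816 on chromosome 6 to 1.52 on chromosome 17, with 1.49 on chromosome 8 and 1.40 on chromosome 1. It was 2.93 on chromosome 7, which was left out, and with that chromosome 177 genes were line A-specific and 135 line B-specific. On chromosome 17, 11 genes were line A-specific and 2 line B-specific, and on chromosome 6 the numbers were 9 and 26. The part that these ratios of covered length had in the counts of genes was not tested.

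**Figure D5:**
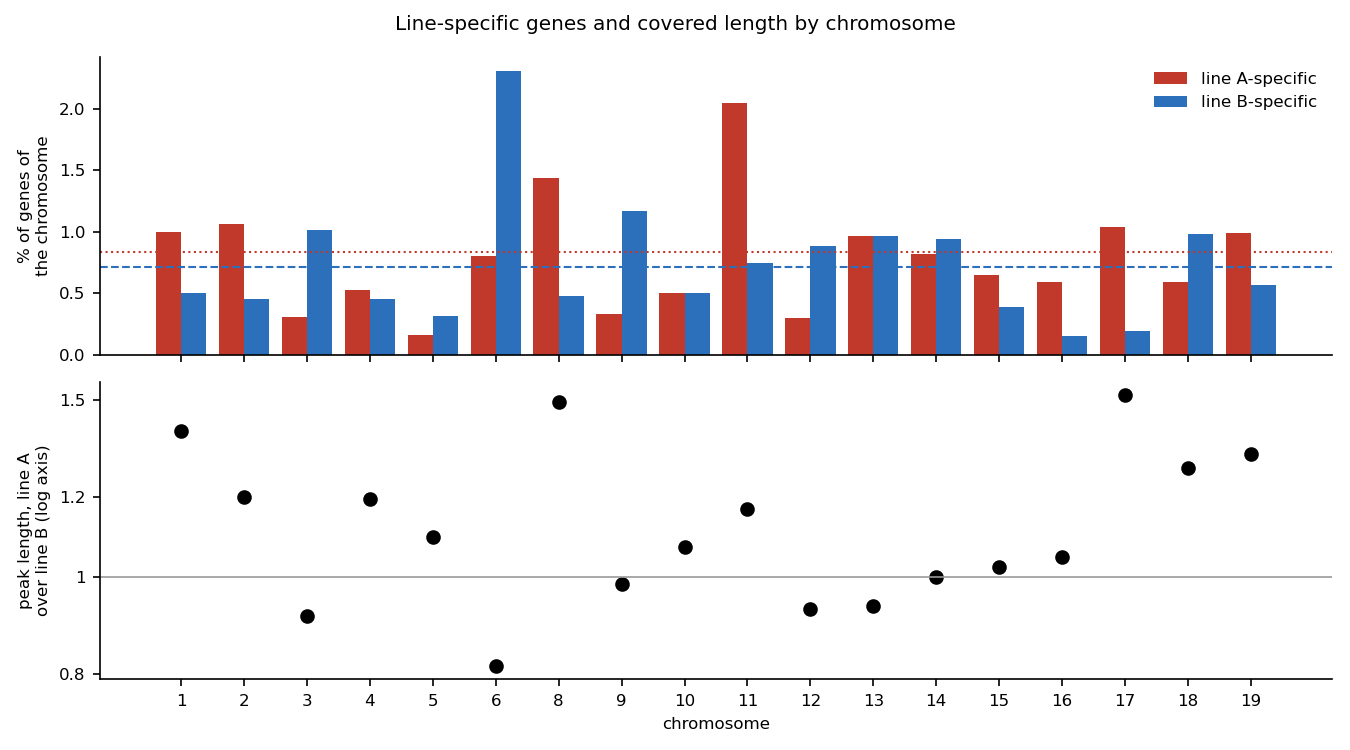
Top, percent of the genes of each chromosome that were line A-specific (red) or line B-specific (blue); the dotted and dashed lines mark the shares over all genes, 0.837% and 0.714%. Bottom, covered length in line A over that in line B on a log axis, with a line at 1. Chromosomes 11 and 8 stand highest in red and chromosome 6 in blue, which also has the lowest ratio.

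At the scale of 1 Mb the lines were furthest apart in a few places. Of 2323 windows, line A was at least 20 percentage points higher in covered sequence in 95 and line B in 31. The window furthest towards line A lay on chromosome 6 between 6 and 7 Mb, with 53.6% covered in line A against 1.02% in line B, and held Dync1i1, Slc25a13, Dlx6 and Dlx5. The window furthest towards line B lay on the same chromosome between 126 and 127 Mb, with 7.81% and 57.9%, and held the neurotrophin gene Ntf3 and the potassium channel genes Kcna5, Kcna1 and Kcna6. Of these, Kcna5 was line B-specific. A window on chromosome 1 between 158 and 159 Mb, with 1.25% and 40.5%, held Brinp2, Astn1 and Pappa2.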

How the data were processed

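The deposited files were 3 peak lists of 3 columns (chromosome, start, end) in mm10, with no score, count or header. Tools named in the submitters' processing notes, with no role, are MACS2 2.1.1.20160309, Bowtie2 2.2.9, deepTools, Picard and DESeq2. Not given in the sources used here are the caller settings, the control, the pooling of libraries and the depth. Starts were read as 0-based and are printed 1-based. Peaks of a list were merged where they met, and the covered share of each RefSeq gene record (GRCm38.p6) plus 2 kb was computed with Python 3.11.15, numpy 2.4.6, pandas 2.3.3 and scipy 1.17.1. The table used for genes gives no exon, so coverage is over the whole record.

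Genes were compared by 17 fixed lists and 35 symbol families, by counts and medians. The members and lists were chosen with earlier results of these data known. Named genes are the 12 with the most covered length per line (no predicted genes), list members (at most 6 per list), the 3 longest runs, genes next to the thresholds and genes in the 5 longest regions. Genes at least 50 points apart, Nr2f1, Pygl, Catsper3, the myosin, interleukin and receptor genes, and those in 1 Mb windows were chosen after their values were seen. Promoter sequences matched 14715 of 18635 genes, with 111 of 156 and 94 of 133 line-specific genes. This is under 80%, so a planned comparison of CG-rich promoters is void. The coverage code was tested on simulated data, where 0 of 1000 windows and 0 of 200 planted genes came out wrong. Of the Hox genes, 1 is left out of the plot and not reported here.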

Additional observations from a re-analysis of the deposited data

How the results depend on the processing

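No paired analysis was possible because each line has 1 peak list with no value per library, and for the same reason no library could be left out. The number of line A-specific genes (156) was 303 at a threshold of 30%, 80 at 70%, 242 with up to 5% allowed in the other line and 259 with peaks joined. The number of line B-specific genes (133) was 220 with no flank, 263 at 30%, 71 at 70%, 214 with peaks joined and 254 after the narrowest line A peaks were left out until both lists covered about the same length. Line A then had 136, so which line had more specific genes depends on this choice. Line A-specific regions (575) numbered 1740 from 10 kb, 78 from 50 kb and 193 when joined under 1 kb. Line B-specific regions (321) numbered 1099, 36 and 99 in the same order. Joined under 10 kb, the regions numbered 733 in line A and 704 in line B, so the size of the difference between the lines depends on this choice. The share with an NPC peak was 41.0%, 65.5% and 47.6% in line A and 25%, 46.8% and 28.3% in line B with no flank, a 5 kb flank and peaks of 1 kb or wider; it was higher in line A under each. The causes were not tested. Other alternatives stayed within 1.5 times, or within the interval for shares. Void for want of promoters, the CG-rich comparison was not run under its alternatives. Depth is unknown, so peaks missed for lack of reads cannot be told apart from absent marks.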

Other observations

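Gene groups with at most 1 line-specific member also held genes that were at least 50 percentage points apart. Over all genes, 2.30% were higher in line A and 1.94% in line B by this measure. Of the endothelial genes, Prox1, the lymphatic homeobox gene (88.9% in line A, 10.6% in line B), Sox17 (77.7% and 21.1%) and the receptor gene Tie1 (92.8% and 24.9%) were higher in line A. Prox1 and Sox17 are also on the endoderm list, so they count in both groups. Fli1, an Ets factor, was higher in line B (10.5% and 86.5%). The blood cell phosphatase gene Ptprc had 71.8% in line A against 6.92% in line B, and no gene of the blood list differed as far in the other direction. Germline genes were higher in line A in 4 of 25, of which Hormad2 was line-specific: Sohlh1 had 100% and 10.1%, Dmc1 94.4% and 16.0%, and Nanos3 72.6% and 2.74%. The cohesin gene Stag3 was the exception, with 20.8% in line A and 95.6% in line B. These genes were chosen after their values were seen, and none of the differences was tested.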
